A study of Mus musculus with 2 samples.

Results

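The insulin-like growth factor (IGF) system was examined in C3H10 cells with and without knockdown of MALAT1. Its 10 members were taken by gene symbol from a table of 46095 genes and are the ligands Igf1 and Igf2, the receptors Igf1r and Igf2r, and the binding proteins Igfbp2, Igfbp3, Igfbp4, Igfbp5, Igfbp6 and Igfbp7. The rule for membership was the gene name. C3H10 (C3H/10T1/2) is a mouse fibroblast-like precursor line that turns into adipocytes after hormonal induction, and it was derived from C3H embryos although the labels give the strain C57BL/6. The control library came from cells transfected with a negative control antisense oligonucleotide (ASO), and the MALAT1-knockdown library from cells transfected with an ASO against MALAT1, each at 100 nM before differentiation. Both cultures were grown to confluence, induced for 2 days with isobutyl-methylxanthine, dexamethasone, troglitazone and insulin, and kept in insulin at 10 ng/mL until RNA was taken on day 6. Each group was 1 library of total RNA freed of rRNA, so no difference below has a replicate check, and the identity of the ASO behind the knockdown library is not given in the sources used here.

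IGF1 and IGF2 are secreted peptides related to insulin, and both act mainly through the tyrosine kinase IGF1R, which feeds the PI3K-AKT and RAS-MAPK branches. IGF2R has no kinase and takes IGF2 and mannose 6-phosphate-tagged enzymes to the lysosome. The binding proteins hold IGFs outside the cell and are cut by proteases such as PAPPA and PAPPA2, which frees the ligand. In fat tissue, IGF and insulin signals drive the growth and differentiation of preadipocytes.

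The control library held 58147539 counts and the MALAT1-knockdown library 61653549 counts, and levels are given as CPM, a gene's counts relative to its library's total after scaling with edgeR's TMM factors. Malat1 had 170402 counts in the control library and 45396 in the knockdown library, or 24.7% of the control level. The summed level of 16 mature adipocyte markers was 8172 CPM in control cells and 3603 CPM in knockdown cells. The 14 fibroblast and preadipocyte markers, of which Dlk1 was at 0 counts in both libraries, summed to 22441 and 24754 CPM. Markers of other cell types had low levels. The summed levels in control and knockdown cells were 0.0520 and 0.0644 CPM for 8 myogenic markers, 1.40 and 1.95 CPM for 6 endothelial markers, 3.15 and 2.53 CPM for 6 macrophage markers and 0.866 and 1.05 CPM for 6 epithelial markers. The defining genes Myod1, Ptprc and Epcam had 0 counts in both libraries, which allows up to 3 counts each. Other listed markers were above 0, with 172 and 119 counts for Cd68, 48 and 61 for Cdh1 and 26 and 25 for Pecam1.

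The 250 bases before the RefSeq starts of Igfbp2, Igfbp4 and Igfbp5 in GRCm38.p6 are printed 5′ to 3′, because the first 2 were the members past a fold threshold, both lower, and Igfbp5 was the most abundant binding protein by counts and the only one with a higher level. Igfbp2 is read from the plus strand and its window is chr1:72824230-72824479, the first of 2 RefSeq start windows. Igfbp4 is read from the plus strand with the window chr11:99040994-99041243, and Igfbp5 from the minus strand with the window chr1:72874866-72875115. Capitals mark exact matches on either strand. In Igfbp2 they are the GC box, GGGCGG, and in Igfbp4 the TATA box, which reads TATAAA.
Igfbp2: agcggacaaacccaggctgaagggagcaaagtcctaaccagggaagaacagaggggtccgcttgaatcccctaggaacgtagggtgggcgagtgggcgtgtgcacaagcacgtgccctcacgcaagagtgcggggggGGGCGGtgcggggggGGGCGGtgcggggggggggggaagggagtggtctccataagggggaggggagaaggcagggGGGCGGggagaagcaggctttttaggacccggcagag
Igfbp4: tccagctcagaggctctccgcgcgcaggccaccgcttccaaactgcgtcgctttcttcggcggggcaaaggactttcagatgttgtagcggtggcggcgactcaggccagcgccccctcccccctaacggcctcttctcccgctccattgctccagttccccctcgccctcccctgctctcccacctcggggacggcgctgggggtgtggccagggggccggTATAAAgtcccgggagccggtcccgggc
Igfbp5: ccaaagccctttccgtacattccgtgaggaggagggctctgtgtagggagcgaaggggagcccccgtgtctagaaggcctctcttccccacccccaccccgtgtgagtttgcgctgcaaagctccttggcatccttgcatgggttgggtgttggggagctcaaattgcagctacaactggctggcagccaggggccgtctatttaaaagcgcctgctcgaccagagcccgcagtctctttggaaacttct

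The start regions differed in these letters. The Igfbp2 window held 3 GC boxes, which began 113, 98 and 37 bases before the start, while the Igfbp4 window held a TATA box 28 bases before the start and no GC box. The Igfbp5 window held no exact match to either. It reads tatttaaaag near its end, and near matches were not searched in any window. A GC box was found in 32.7% and a TATA box in 12.4% of 32851 windows of the same length over all genes. Besides these, CCAAT, the C/EBP palindrome TTGCGCAA, the pair of AGGTCA half-sites with 1 base between them to which PPAR-RXR binds, and the forkhead sequence TGTTTAC were searched on both strands, and none was found in the 3 printed windows. These 4 were present, in that order, in 33.8%, 0.164%, 0.0335% and 3.17% of all windows. Among the first windows of all 10 members, 4 held a GC box, 2 a TATA box, 2 a CCAAT box and 0 any of the other 3 sequences. The GC content was 67.2% for Igfbp2, 69.2% for Igfbp4 and 58.8% for Igfbp5, against a median of 52.4% over all windows.

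The difference between the libraries was tested for each of the 17356 genes whose libraries together held at least 10 counts, with an exact binomial test (two-sided, Benjamini-Hochberg adjusted). Calls needed an adjusted p under 0.05 together with a change of at least 2-fold, or of 1.5-fold in a second, looser rule. These tests compare 2 libraries and not the conditions, and the 95% intervals cover counting error only. Such an interval excluded 0 for 53.1% of all genes tested and for 6 of 10 members. All 10 members passed the count minimum. Under the 2-fold rule 1 of 10 members was called, Igfbp2, which was lower, while 6.28% of all genes tested were called in either direction and 4.09% were called lower. Under the 1.5-fold rule 2 of 10 were called, Igfbp2 and Igfbp4, both lower, against 11.6% of all genes tested in either direction and 7.26% lower. The median log2 fold change was -0.18 over the members and -0.0029 over all genes tested. With so few members these counts are a description only. In bulk libraries fewer cells of a type and less RNA per cell cannot be told apart.

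**Figure D1:**
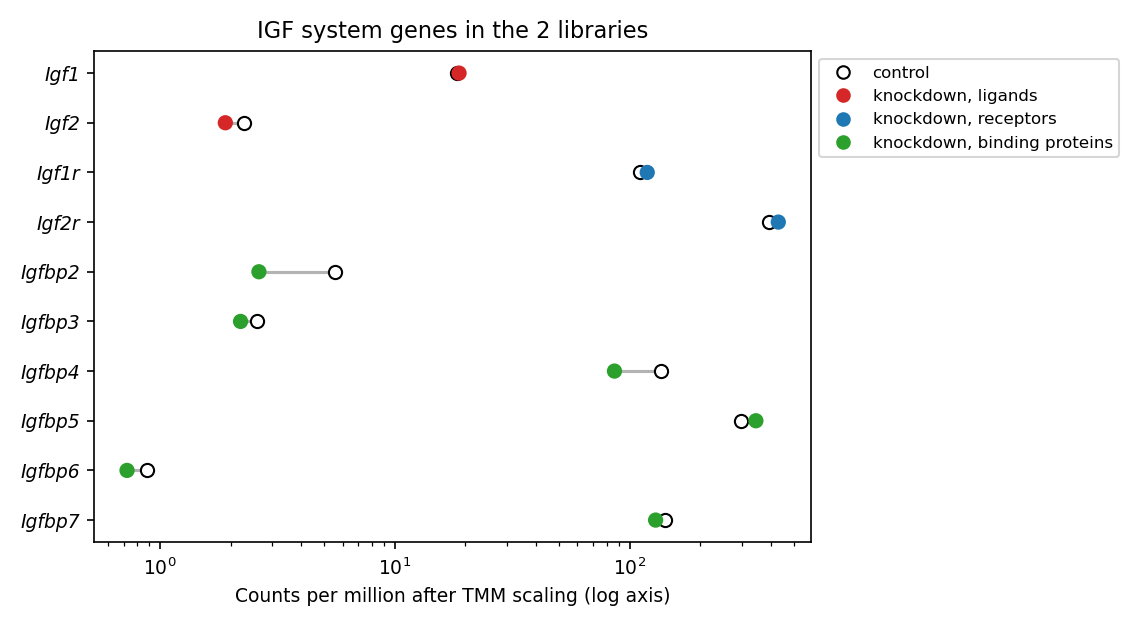
Level of each member in CPM (log axis) in the control library (open points) and the MALAT1-knockdown library (filled points), 1 library each. Igfbp2 and Igfbp4 are the members with the widest gaps, both to the left in knockdown cells, while Igf1 nearly coincides at 18.4 and 18.8 CPM.

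The ligands were expressed at modest levels and were not called. Igf1, the ligand that growth hormone induces, had 1061 counts in the control library and 1167 in the knockdown library, or 18.4 and 18.8 CPM. Its log2 fold change was 0.03 (95% limits -0.09 and 0.15), so a 1.5-fold difference in either direction lay outside the limits. Igf2, an imprinted fetal growth factor, had 131 and 118 counts, or 2.27 and 1.90 CPM. Its log2 fold change was -0.26 (95% limits -0.63 and 0.11), and at this depth no difference was detectable. The ligand counts summed to 1192 and 1285, a log2 fold change of 0.0018 (95% limits -0.11 and 0.12), and Igf1 made up 89.0% of them in control cells (95% Clopper-Pearson interval 87.1% to 90.7%) and 90.8% in knockdown cells (89.1% to 92.3%).

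Both receptors were slightly higher in the knockdown library and neither was called. Igf1r, the signaling receptor, had 6361 counts in the control library and 7385 in the knockdown library, or 110 and 119 CPM. The log2 fold change was 0.11 (95% limits 0.06 and 0.16). Igf2r, the clearance receptor, had 22612 and 26696 counts, or 392 and 430 CPM, with a log2 fold change of 0.13 (95% limits 0.11 and 0.16). The receptors moved in parallel, since the ratio of Igf2r to Igf1r counts was 3.55 in control cells and 3.61 in knockdown cells. The insulin receptor Insr, which forms hybrids with IGF1R and is not among the members, lay in the other direction with 8013 and 7169 counts and a log2 fold change of -0.27 (95% limits -0.31 and -0.22). Within each library, which removes the scaling, Igf1r was 44.3% of the summed Igf1r and Insr counts in control cells (95% interval 43.4% to 45.1%) and 50.7% in knockdown cells (49.9% to 51.6%). Per kilobase of the longest transcript the Igf1r share was 39.4% in control and 45.8% in knockdown cells, so Igf1r stayed below Insr. The intervals cover counting error only, with 1 library per group. The Igf1r and Insr pair was chosen after the values were seen.

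The binding proteins held the largest differences among the members. Igfbp2, a carrier that also binds integrins through an RGD motif, had 321 counts in the control library and 164 in the knockdown library, or 5.56 and 2.64 CPM. Its level in knockdown cells was 47.5% of the control level, a log2 fold change of -1.07 (95% limits -1.36 and -0.80, adjusted p = 1.65e-14 by the exact binomial test). The interval spans the 2-fold line, so the call rests on the estimate and not on its bounds. With edgeR's exact test and a preset biological coefficient of variation of 0.2 between cultures, the adjusted p was 0.394 and the call was lost. The GENCODE M21 annotation of GRCm38 places Igfbp2 on the plus strand of chromosome 1, from 72824503 to 72852474.

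Igfbp4, a carrier that mainly restrains IGF action and is cut by PAPPA, was the abundant binding protein with the largest difference. It had 7879 counts in the control library and 5356 in the knockdown library, or 137 and 86.2 CPM, which left 63.1% of the control level. The log2 fold change stood at -0.66 (95% limits -0.71 and -0.61, adjusted p = 1.10e-149 by the exact binomial test), and Igfbp4 was called lower under the 1.5-fold rule. With edgeR's exact test the adjusted p was 0.0276 at a preset coefficient of variation of 0.1 and 1 at 0.2. The Igfbp4 gene is on the plus strand of chromosome 11, from 99041244 to 99054392.

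Igfbp5, a carrier that attaches to the extracellular matrix, was the single binding protein with a higher level in the knockdown library. It had 17121 counts in the control library and 21432 in the knockdown library, or 297 and 345 CPM. The log2 fold change was 0.22 (95% limits 0.19 and 0.25), under both fold thresholds. With edgeR's exact test at a preset coefficient of variation of 0.1 the adjusted p was 0.78. The Igfbp5 gene is on the minus strand of chromosome 1, from 72857932 to 72874884, so that its 3′ end faces that of Igfbp2 across 5457 bases with 0 annotated genes between them. These neighbours thus lay on opposite sides of 0, and the ratio of Igfbp5 to Igfbp2 counts was 53.3 in control cells and 131 in knockdown cells.

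The remaining binding proteins were not called. Igfbp7, a matrix protein with low affinity for IGFs, had 8152 counts in the control library and 8018 in the knockdown library, or 141 and 129 CPM, a log2 fold change of -0.13 (95% limits -0.18 and -0.09). Igfbp3, the main carrier of IGFs in serum, had only 150 and 137 counts and a log2 fold change of -0.24 (95% limits -0.58 and 0.11). Igfbp6, a carrier that prefers IGF2, had 51 and 45 counts and a log2 fold change of -0.28 (95% limits -0.90 and 0.32). At these depths a 1.5-fold decrease could not be told from no change for Igfbp6, whereas it lay just outside the interval for Igfbp3. Igfbp1, the liver-type carrier regulated by insulin, had 0 counts in both libraries, which allows up to 3 counts, or 0.0520 CPM in control cells and 0.0483 CPM in knockdown cells. The related genes Igfbpl1, Insrr, Ins1 and Ins2 were at 0 counts as well.

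**Figure D2:**
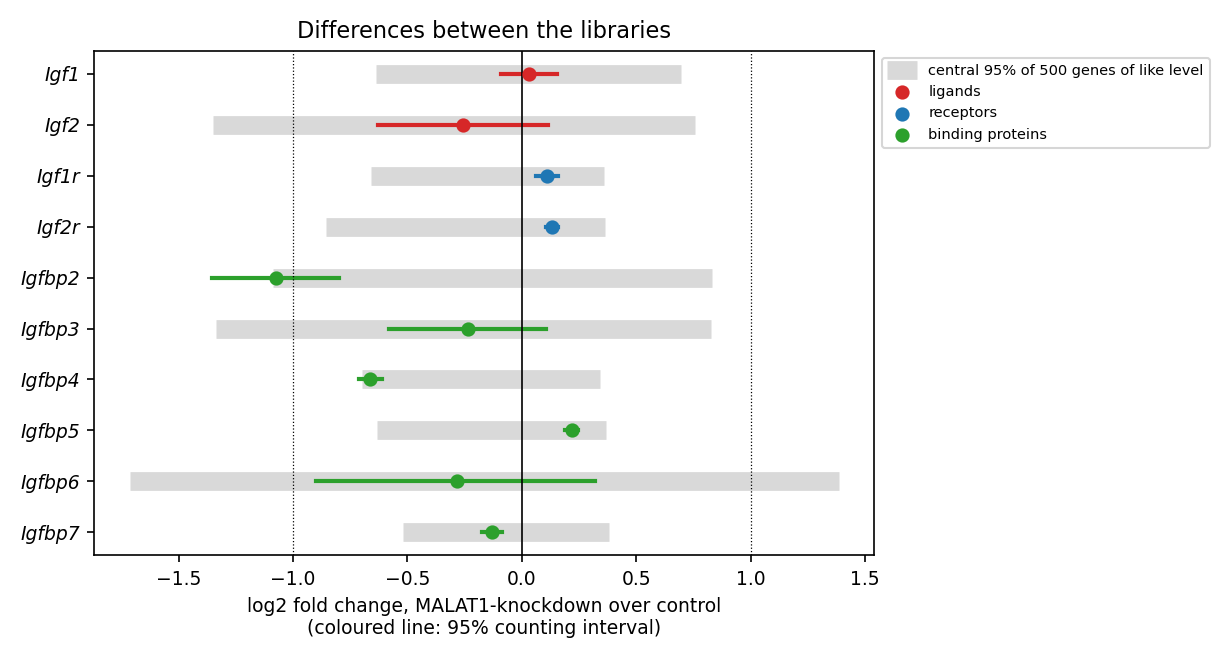
Log2 fold change of each member (points, MALAT1-knockdown over control) with its 95% counting interval (coloured line) and, in grey, the central 95% of the 500 tested genes nearest in mean level. Dotted lines mark a 2-fold change, and all 10 points lie inside the grey range, with Igfbp2 and Igfbp4 close to its lower end.

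How far each member stood from other genes was described by its place among the 500 tested genes nearest in mean level. Igfbp2 and Igfbp4 each lay above 2.80% of such genes. The central 95% of log2 fold changes ran from -1.09 to 0.83 around Igfbp2 and from -0.70 to 0.34 around Igfbp4, so that both values were near the edge of the range and inside it. Igfbp5 lay above 87.2% of its like-level genes, Igf1r above 74.2% and Igf2r above 73.4%. Igf1 was near the middle at 55.4%, and Igfbp7 was at 20.8%. Genes with as few counts as Igfbp6 spread widely, from -1.71 to 1.39, and Igfbp6, Igfbp3 and Igf2 lay above 35.0%, 37.4% and 38.8% of theirs.

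By summed counts, the total of the binding proteins was almost level while its composition shifted. Such sums weight long transcripts most, and Igfbp5 has the longest of the 6 at 6006 bases. The 6 binding proteins summed to 33674 counts in the control library and 35152 in the knockdown library, or 584 and 566 CPM, a log2 fold change of -0.04 (95% limits -0.07 and -0.02). By counts, Igfbp5 made up 50.8% of the pool in control cells (95% interval 50.3% to 51.4%) and 61.0% in knockdown cells (60.5% to 61.5%). The share of Igfbp4 was 23.4% (22.9% to 23.9%) and 15.2% (14.9% to 15.6%). Igfbp7 took 24.2% (23.8% to 24.7%) and 22.8% (22.4% to 23.3%), and Igfbp2 took 0.953% (0.852% to 1.06%) and 0.467% (0.398% to 0.543%). By counts, Igfbp5 and Igfbp4 together had 433 CPM in control and 431 CPM in knockdown cells, a pair chosen after the values were seen. Igfbp5 was 68.5% of that sum in control cells (67.9% to 69.1%) and 80.0% in knockdown cells (79.5% to 80.5%). The shares are taken within a library and do not depend on the scaling. Like every value here, they rest on 1 library per group. Per kilobase of the longest transcript, the pair was not level between control and knockdown cells. Igfbp4 was lower (35.6 and 22.5 CPM) by more than Igfbp5 was higher (49.4 and 57.4 CPM). With the other binding proteins lower too, the pool per length was lower in knockdown cells.

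**Figure D3:**
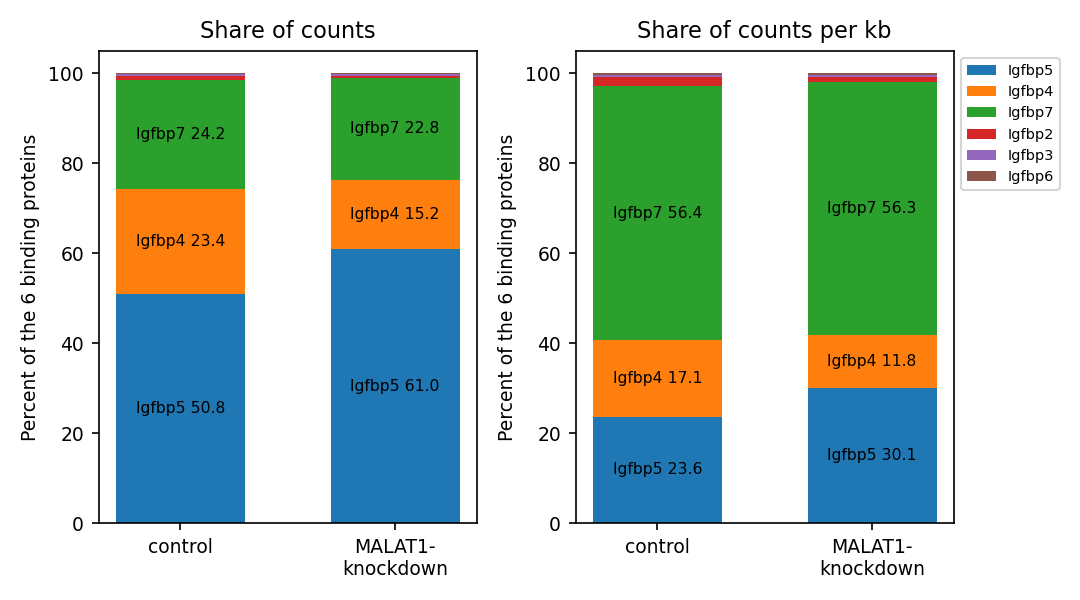
Share of each of the 6 binding proteins in their summed counts (left) and in their summed counts per kilobase of the longest transcript (right), for 1 control and 1 MALAT1-knockdown library. In both panels the Igfbp5 segment is larger and the Igfbp4 segment smaller in knockdown cells, by counts 61.0% against 50.8% and 15.2% against 23.4%.

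Levels of different genes were compared per kilobase of the longest GENCODE M21 transcript. In control cells Igfbp7 had the highest level of the members at 118 CPM per kilobase, followed by Igfbp5 at 49.4, Igf2r at 44.1 and Igfbp4 at 35.6 CPM per kilobase. Igf1r followed at 9.66, Igfbp2 at 4.26 and Igf1 at 2.61 CPM per kilobase. The lowest were Igfbp3 at 1.07, Igfbp6 at 0.795 and Igf2 at 0.481 CPM per kilobase, and the counting intervals of Igfbp3 and Igfbp6 overlapped (0.909 to 1.26 and 0.592 to 1.05). In knockdown cells the order was kept except for Igfbp2, at 2.02 CPM per kilobase, which was then below Igf1 at 2.66 with intervals that did not overlap (1.72 to 2.35 and 2.51 to 2.82), and the intervals of Igfbp6 and Igf2 overlapped as well (0.475 to 0.872 and 0.333 to 0.482). This order depends on the transcript length used. With the principal transcript of Igf1, 1673 bases long instead of 7052, its level was 11.0 CPM per kilobase in control cells, above Igf1r and Igfbp2, and with the median length of all transcripts Igf2r came first at 488 CPM per kilobase.

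In the same annotation Igf1 runs on the plus strand of chromosome 10 from 87858265 to 87937042, and Igf2 on the minus strand of chromosome 7 from 142650766 to 142666816. Igf1r is on the plus strand of chromosome 7 from 67952827 to 68233668, and Igf2r on the minus strand of chromosome 17 from 12682406 to 12769664. Igfbp3 occupies the minus strand of chromosome 11 from 7206086 to 7213923, Igfbp6 the plus strand of chromosome 15 from 102144362 to 102149511, and Igfbp7 the minus strand of chromosome 5 from 77349240 to 77408041. Some members share their locus with other transcripts, and whether the counting used strand is not given in the sources used here, although the library kit keeps it. Airn, the antisense RNA of the imprinted Igf2r locus, overlaps 28354 bases of Igf2r and had 391 counts in the control library and 408 in the knockdown library, a log2 fold change of -0.05 (95% limits -0.25 and 0.16). Igf2os, antisense to Igf2, had 0 counts in both libraries. Igf1os, antisense to Igf1, had 0 and 1 counts. Gm49394 overlaps 16048 bases of Igf2 on the same strand, and no counts of it were used here, so the Igf2 value is uncertain. Igfbp7 overlaps 7085 bases of the antisense gene Gm34648, which had 1 and 0 counts, and 85 bases of Polr2b. No annotated gene overlaps Igf1r, Igfbp2, Igfbp3, Igfbp4, Igfbp5 or Igfbp6.

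The genes around the members were taken from 9 lists written by hand, with 81 of 96 distinct genes tested. Of the 81 genes 2 were called lower and 0 higher under the 2-fold rule, where 4.09% and 2.19% of all genes tested were called, and their median log2 fold change was -0.02. Under the 1.5-fold rule 3 were called lower and 1 higher, against 7.26% and 4.37% of all genes. The called share was thus no higher than in the background.

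Among the proteases that cut binding proteins and their inhibitors, 1 of 9 tested genes was called, against 6.28% of all genes tested. The median log2 fold change of this list was -0.06. Htra1, a secreted serine protease, was called lower with 59 counts in the control library and 28 in the knockdown library, a log2 fold change of -1.17 (95% limits -1.89 and -0.51). Adam12, a metalloprotease that cuts IGFBP3 and IGFBP5, had 5155 and 3924 counts and a log2 fold change of -0.50. Pappa had 339 and 347 counts and a log2 fold change of -0.07 (95% limits -0.29 and 0.15). Pappa2 had 2134 and 1939 counts and a log2 fold change of -0.24. Stc1, an inhibitor of PAPPA, had 214 and 290 counts and a log2 fold change of 0.33 (95% limits 0.07 and 0.59). The serine protease gene Prss23 had a log2 fold change of 0.28. Igfals, the subunit that holds IGFs in the large serum complex, had 49 and 29 counts with a log2 fold change of -0.85 (95% limits -1.58 and -0.17) and was called lower under the 1.5-fold rule.

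The CCN family, whose members carry an IGFBP-like domain, leaned the other way, with a median log2 fold change of 0.26 over 5 tested genes. Of these 0 were called under the 2-fold rule, against 6.28% of all genes tested. Nov (CCN3) had 8212 counts in the control library and 16762 in the knockdown library, or 142 and 270 CPM. Its log2 fold change of 0.92 (95% limits 0.88 and 0.96) lay just under the 2-fold line, and Nov was called higher under the 1.5-fold rule. The values were 0.31 for Wisp1 (CCN4), 0.26 for Ctgf (CCN2) and -0.08 for Cyr61 (CCN1). Of the proteins that bind Igf2 mRNA, Igf2bp2 had 8841 and 10963 counts with a log2 fold change of 0.20 (95% limits 0.16 and 0.24), and Igf2bp1 had a log2 fold change of 0.10. None of the 3 tested genes of this list was called.

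Downstream of the receptors, 1 of 13 receptor adaptors was called under the 2-fold rule, against 6.28% of all genes tested. In the PI3K-AKT-FOXO branch 0 of 19 genes were called, and in the RAS-MAPK branch 0 of 13. The medians were -0.06, -0.03 and 0.01, in that order. The called adaptor was Sh2b2, also known as APS, which docks on the active insulin receptor. It had 3356 counts in the control library and 1676 in the knockdown library, a log2 fold change of -1.11 (95% limits -1.19 and -1.02). Irs2, a docking protein of both receptors, had a log2 fold change of -0.32, and Irs1 had one of -0.03 (95% limits -0.07 and 0.02). The adaptor Sh2b1 had one of -0.14. Grb10, an imprinted inhibitor of both receptors, had 36008 and 42081 counts and a log2 fold change of 0.12. The kinases Akt1 and Akt2 lay on opposite sides of 0, with log2 fold changes of 0.26 (95% limits 0.23 and 0.29) and -0.23 (95% limits -0.27 and -0.20). Foxo1, a transcription factor that AKT keeps out of the nucleus, had a log2 fold change of -0.47, and Tsc2, a brake on mTORC1, had one of -0.21. In the RAS-MAPK branch the log2 fold change was 0.35 for Dusp6, a phosphatase induced by ERK, 0.21 for Nras and -0.40 for Spry4, an inhibitor of the branch.

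Upstream, none of the 8 genes of the growth hormone axis was called, against 6.28% of all genes tested, and their median was -0.08. The receptor Ghr had 14558 counts in the control library and 12371 in the knockdown library, a log2 fold change of -0.34 (95% limits -0.38 and -0.31). Stat5a and Stat5b, which carry the growth hormone signal to Igf1, had log2 fold changes of -0.33 and -0.21. Socs2, a feedback inhibitor of this axis, had 6037 and 8244 counts and a log2 fold change of 0.34. Of 10 tested genes of the imprinted network around Igf2, 0 were called. H19, the neighbour of Igf2, had 67 and 54 counts and a log2 fold change of -0.41 (95% limits -0.96 and 0.12). Mest had one of -0.44, Plagl1 one of 0.48, with 110 and 165 counts, and Gnas one of 0.09.

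**Figure D4:**
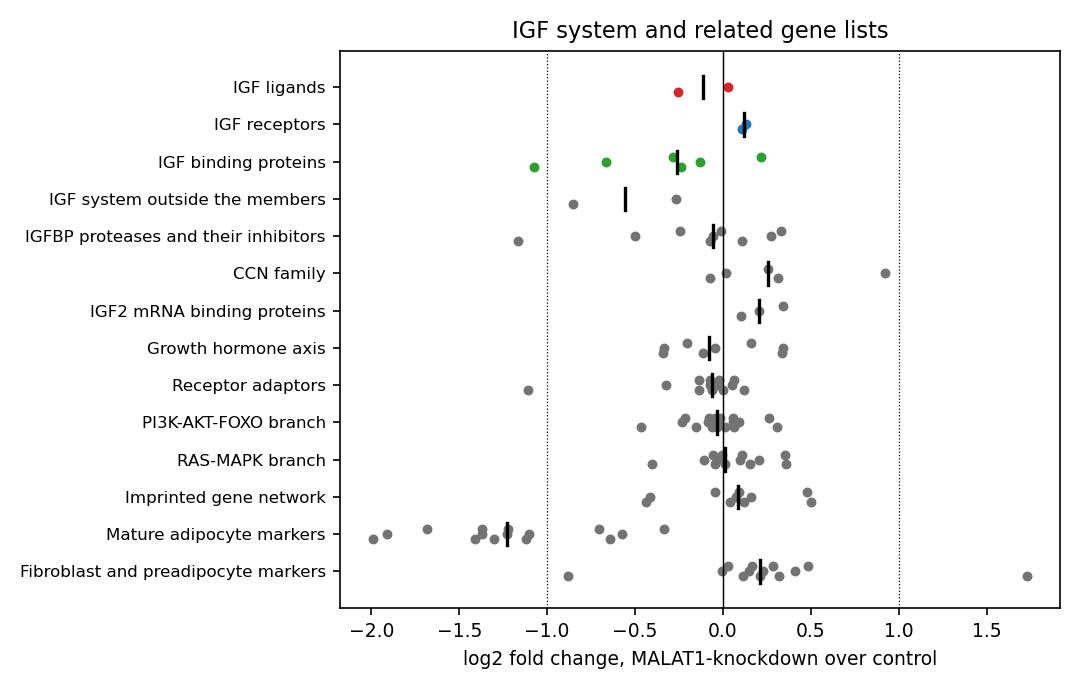
Log2 fold change (MALAT1-knockdown over control) of each tested gene (points) of the IGF ligands, receptors and binding proteins, of 9 related lists and of 2 marker lists, with the median of each list as a black bar and dotted lines at a 2-fold change. The median was -0.26 for the IGF binding proteins, -1.23 for the mature adipocyte markers and 0.21 for the fibroblast and preadipocyte markers.

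Cell type markers also differed between the libraries. Of 15 mature adipocyte markers tested, 11 were called lower against 4.09% of all genes tested, and their log2 fold changes ran from -1.99 to -0.33. Igfbp2 and Igfbp4, at -1.07 and -0.66, lay within that range, while Igfbp7, Igfbp3 and Igfbp6, between -0.28 and -0.13, and Igfbp5, at 0.22, lay outside it. Of 13 fibroblast and preadipocyte markers tested, 1 was called higher under the 2-fold rule, against 2.19% of all genes, and 0 were called lower. Their log2 fold changes ran from -0.88 for Dcn to 1.73 for Cd34, the called gene, with 19 and 69 counts. Under the 1.5-fold rule Cd34 was called higher, against 4.37% of all genes tested, and Dcn lower, against 7.26%. All binding proteins but Igfbp2 lay within this second marker range, but its low end was Dcn alone. Of the 13 markers 11 were above 0, and besides Dcn only Col3a1 was below it, at -0.0067. Igfbp4 thus lay within both ranges only through Dcn, and the same held for Igfbp7, Igfbp3 and Igfbp6 in the second range. Among the low markers of other cell types, 2 of 4 endothelial markers tested were called higher, Vwf and Emcn. So was 1 of 3 macrophage markers tested, Lyz2, against 2.19% of all genes tested. Vwf, Emcn and Lyz2 had at most 45 counts in a library. Csf1r had 3 and 13 counts and was not called. Cd68 had 172 counts in the control library and 119 in the knockdown library, a log2 fold change of -0.64. It was called lower under the 1.5-fold rule, against 7.26% of all genes tested. The log2 fold change was -0.16 for Pecam1 and -0.37 for Tek. The part of the marker differences in these results was not tested.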

How the data were processed

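RNA was sequenced from 1 control and 1 MALAT1-knockdown culture of C3H10 cells. The authors deposited raw counts of reads per gene symbol, without normalization, from libraries depleted of rRNA with a directional kit. The submitters' processing notes name HISAT2 and GRCm38. The counting tool, the annotation, the strand setting and the handling of multi-mapped reads are not given in the sources used here.

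Library sizes (58147539 and 61653549 counts) were scaled with TMM factors (edgeR 4.0.16, R 4.3.3). Genes with at least 10 summed counts were tested with an exact binomial test, two-sided with equal tails, and adjusted by Benjamini-Hochberg (scipy 1.17.1, Python 3.11.15), since the quasi-likelihood test of edgeR cannot be fitted to 1 library a group. Log2 fold changes used a prior count of 0.5 in proportion to library size, and intervals are 95% Clopper-Pearson or, for levels, exact Poisson limits. Both cover counting error only. The script was tested on simulated data. Transcript lengths and positions are from GENCODE M21 (GRCm38), and start windows from RefSeq (GRCm38.p6), which matched 10 of 10 members.

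The members and lists were chosen with earlier results of these data known. All members are named, and of other lists the called genes and up to 4 genes with intervals farthest from 0, 1 of which is not reported here; Malat1, Insr, Igfbp1 and Igfals are always named, and genes named outside this rule were chosen after their values were seen (single markers, Igfbpl1, Insrr, Ins1, Ins2, Pappa, Stc1, Irs1, H19, Airn, Igf1os, Igf2os, Gm49394, Gm34648 and Polr2b). The alternatives were library totals, DESeq2 size factors (DESeq2 1.42.0), upper-quartile factors, other count filters and prior counts, edgeR's exact test with preset variation, counts divided by 4 and other transcript lengths. The principal transcript length and a binomial test that sums the less likely outcomes were added after the data were examined.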

Additional observations from a re-analysis of the deposited data

How the results depend on the processing

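Scaling, count filter and prior count left the direction and call of each member as reported in 60 of 60 comparisons. They moved a member's log2 fold change by at most 0.0221. The count filters could change only a member's adjusted p, not its fold change, so their agreement on direction was fixed in advance. Each scaling shifts all members by nearly the same amount, and a larger prior count only shrinks their values. The 60 agreements are therefore not independent checks. Igfbp2 stayed the 1 member called under the 2-fold rule, and Igfbp2 and Igfbp4 the 2 under the 1.5-fold rule, with counts divided by 4 and with a preset coefficient of variation of 0.1. With edgeR's exact test at 0.2 and at 0.4, 0 members passed either rule. Over all genes, 1090 calls became 562 with at least 10 counts in each library, 667, 117 and 1 with a preset variation of 0.1, 0.2 and 0.4, and 255 with counts divided by 4. With the median transcript length, the share of the binding protein pool per length in control and knockdown cells was 48.8% and 38.2% for Igfbp4 (17.1% and 11.8% with the longest), 15.8% and 22.7% for Igfbp5 (23.6% and 30.1%) and 33.3% and 37.7% for Igfbp7 (56.4% and 56.3%), and Igf2r stood at 488 and 535 CPM per kilobase (44.1 and 48.4). No paired analysis was possible because each group has 1 library, and for the same reason no library could be left out. Depth limits Igf2, Igfbp3 and Igfbp6, with 51 to 150 counts in control cells.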
